A study of Mus musculus with 10 samples.

Results

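Footprint levels of 9 Polycomb genes were followed through neurogenesis in the mouse neocortex, namely Ezh1, Ezh2, Eed, Suz12, Jarid2, Ring1, Rnf2, Bmi1 and Cbx2. The members were chosen by gene symbol, through the Ensembl identifiers of the footprint count table. No measured value entered that rule, although earlier results of these data were known. All 9 were among the 22373 genes of the table, and all 9 were among the 13484 genes that passed a filter of at least 32 footprints summed over the libraries of at least 1 stage. Footprints are mRNA fragments shielded by ribosomes from nuclease digestion, so a level reflects both the amount of an mRNA and how many ribosomes sit on it.

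The tissue came from wild-type CD-1 mice at E12.5, E14, E15.5 and E17, counted in days after timed mating, and at P0, the day of birth. Each stage had 2 libraries, and each library was made from a pool of neocortex tissue from many embryos or pups of both sexes, so a replicate stands for a pool rather than 1 animal. No stage carried a mutation or a treatment. Levels are given as CPM, counts scaled to a common library total with TMM factors, a normalization that assumes most genes do not move.

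Polycomb proteins work in complexes that keep genes silent through marks on histones. In Polycomb repressive complex 2 (PRC2), Ezh2 or its paralogue Ezh1 places methyl groups on lysine 27 of histone H3, in a core built with Eed and Suz12. In Polycomb repressive complex 1 (PRC1), Ring1 or Rnf2 attaches ubiquitin to histone H2A with a PCGF partner such as Bmi1, and CBX proteins such as Cbx2 read the methyl mark. In the embryonic cortex these complexes are known for holding back genes in dividing neural progenitors and for timing the switch between the cell types they produce.

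Between E12.5 and P0, 5 of the 9 members fell and 1 rose. Cbx2, Ezh2, Suz12, Eed and Jarid2 were lower at birth, by 11.3-fold down to 1.60-fold, whereas Ezh1 was 3.20-fold higher. Ring1, Rnf2 and Bmi1 did not pass the test between these stages, with log2 fold changes of 0.35, -0.23 and -0.24. A gene was called where limma-voom gave an adjusted p under 0.05, and a log2 fold change of at least 0.32 in either direction, in a fit of all 10 libraries and with adjustment over all 13484 genes. By the same rule 62.1% of all genes tested were called between E12.5 and P0, 30.1% higher and 32% lower, so that 6 called of 9 is close to the share of the whole table. The median log2 fold change of the 9 members was -0.68, against -0.01 over all genes tested.

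The steps between adjacent stages held fewer calls. In the fit of all libraries, the spread between the P0 libraries also entered the tests of the embryonic steps. From E12.5 to E14 limma-voom called 0 members, where 0.638% of all genes were called (0.497% higher and 0.141% lower). At an unadjusted p under 0.05, 1 member passed in that step, and both edgeR and DESeq2 called 0. From E14 to E15.5, Ezh1 rose and Cbx2 fell, against 36.1% of all genes called (16.5% higher and 19.6% lower). From E15.5 to E17 Cbx2 alone was called, lower, against 9.04% of all genes (5.61% higher and 3.43% lower). From E17 to P0 Ezh1 rose and Ezh2 and Bmi1 fell, against 20.5% (9.46% higher and 11.1% lower). The comparisons of E15.5 and of E17 with E12.5 each called Ezh1 higher and Ezh2, Eed, Suz12 and Cbx2 lower, 5 of 9 members in each. In all genes 46.2% were called at E15.5 against E12.5 (22.2% higher and 24% lower) and 54.7% at E17 against E12.5 (26.9% higher and 27.8% lower). Over the 5 stages together, the moderated F test in limma-voom passed 7 members, all but Ring1 and Rnf2, against 63.8% of all genes.

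The 2 libraries of a stage did not overlap in CPM with those of the stage before in 7 members at E14, 7 members at E15.5, 7 members at E17 and 6 members at P0, where 53.2%, 76.9%, 67.9% and 55.8% of all genes did not overlap. Against E12.5 the numbers were 6 members at E15.5, 9 members at E17 and 7 members at P0, beside 80.1%, 82.7% and 75.2% of all genes.

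**Figure D1:**
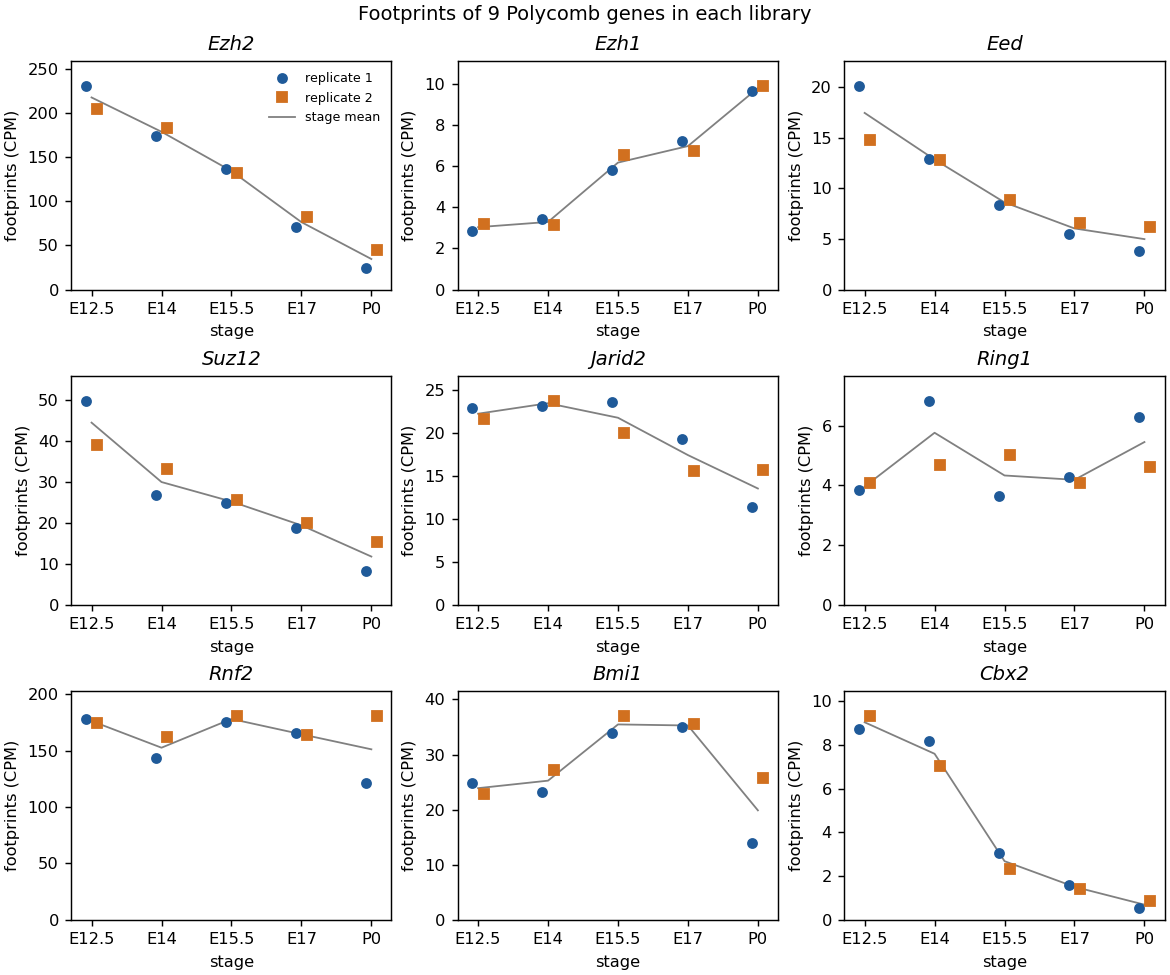
Footprint level in CPM (vertical axes) of each of the 9 Polycomb genes by stage (horizontal axes), with 1 point for each library and the line through the mean of the 2 libraries of a stage. Ezh2, Eed, Suz12 and Cbx2 step down towards P0 and Ezh1 steps up, while Ring1 and Rnf2 show no steady course.

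**Figure D2:**
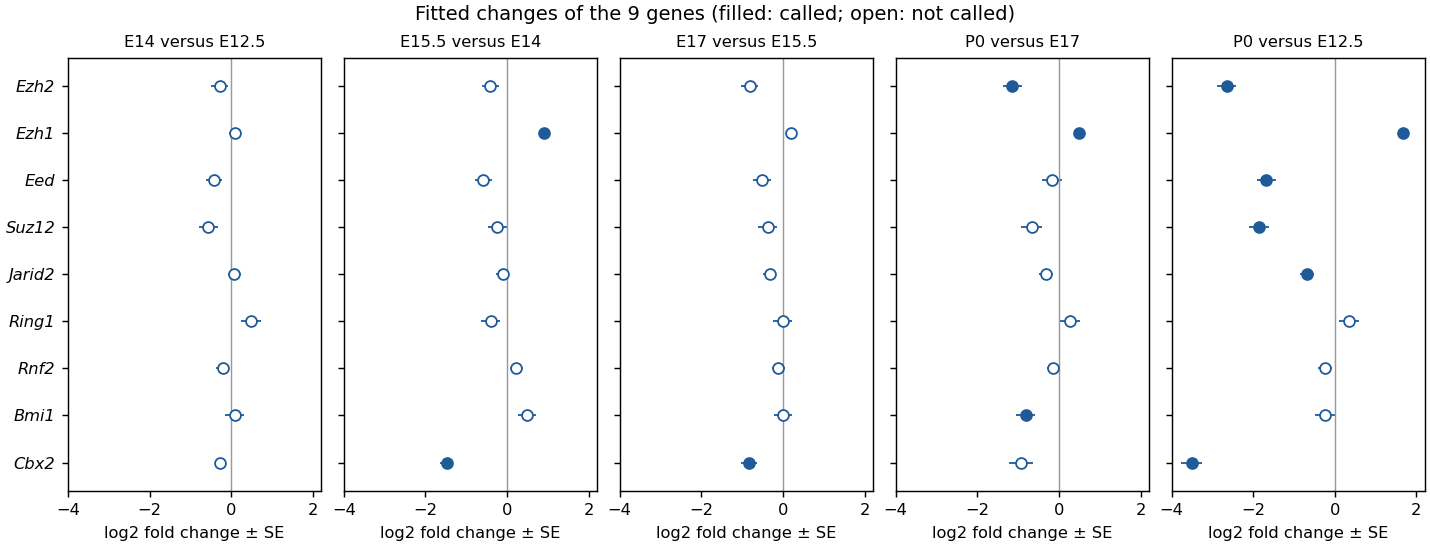
Log2 fold change with its standard error (horizontal axes) of each Polycomb gene in the 4 steps between adjacent stages and from E12.5 to P0, from the limma-voom fit, with filled points for called genes. The first step has no filled point, and the longest comparison has 6, with Cbx2 at -3.50 and Ezh1 at 1.68 at its ends.

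The libraries held 7544404 to 36129988 counts, with P0 replicate 1 the shallowest. The SD of the log2 ratio between the 2 libraries of a stage, over 4559 well-counted genes, was 0.13 to 0.22 at the embryonic stages and 0.54 at P0. In P0 replicate 1, 8 of the 9 members had a lower CPM than in P0 replicate 2. The gap differed between members, and for Ezh1 the 2 P0 libraries lay close together (SD 0.17 CPM). Every call between E12.5 and P0 was kept when either P0 library was left out, and 2 more genes were then called without replicate 2 (Rnf2 and Bmi1, both lower).

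The tissue label was checked by marker genes. The summed level of 8 neocortex genes was 602 to 643 CPM at E12.5 and 701 to 722 CPM at P0. Genes of neighbouring tissues moved with the step from E14 to E15.5. The 7 choroid plexus genes summed to 1124 to 1130 CPM at E14 and to 11.1 to 13.6 CPM at E15.5, and all 6 of them that could be tested fell. The 6 genes of the meninges summed to 62.9 to 71.3 CPM and to 2.53 to 2.89 CPM, and the 6 of endothelium to 23.3 to 30.2 CPM and to 7.26 to 8.43 CPM, and all 6 of each list fell. Of the choroid plexus list, Kcnj13 was at 0 in 4 libraries, Aqp1 in 2, and Folr1 and Otx2 in 1 each. The 9 genes of the ganglionic eminence and its interneurons rose from 33.1 to 38.1 CPM in sum to 121 to 125 CPM, with 6 of 9 called. The part of these tissues in the members' values was not tested.

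Ezh2 (ENSMUSG00000029687) is the methyltransferase of PRC2 that dividing cells mainly use. It had 231 and 204 CPM in E12.5 replicates 1 and 2, 174 and 184 CPM at E14, 136 and 132 CPM at E15.5, 70.7 and 82.3 CPM at E17, and 24.9 and 44.4 CPM at P0. Both libraries of each stage lay below both libraries of the stage before. The mean went from 218 ± 19.0 CPM (SD, n = 2) at E12.5 to 34.7 ± 13.8 CPM at P0, a log2 fold change of -2.65 (limma-voom adjusted p = 2.00e-05, SE 0.22).

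In the fit of all libraries the estimate for Ezh2 grew from step to step. On the log2 scale the change was -0.41 (SE 0.21) from E14 to E15.5, -0.82 (SE 0.21) from E15.5 to E17 and -1.14 (SE 0.23) from E17 to P0. The last of these was called (limma-voom adjusted p = 0.0114), whereas the one before it just missed the threshold (limma-voom adjusted p = 0.0509). The call from E17 to P0 was lost without either E17 library and in a fit of those 2 stages only (limma-voom adjusted p = 0.134). That last fit called 0 of all 13484 genes. The step from E15.5 to E17 was called in 7 of 19 alternative settings, DESeq2 among them (adjusted p = 0.00863). Over the 19 settings the step from E17 to P0 ran from -1.58 to -0.78, and that from E15.5 to E17 from -0.92 to -0.71. With 24.9 and 44.4 CPM in the 2 P0 libraries, the size of the last step depends on which is read.

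Ezh1 (ENSMUSG00000006920), the paralogue of Ezh2 that is known to prevail in cells that have left the cell cycle, went the other way. It had 2.86 and 3.22 CPM at E12.5, 3.44 and 3.14 CPM at E14, 5.81 and 6.54 CPM at E15.5, 7.21 and 6.76 CPM at E17, and 9.68 and 9.92 CPM at P0. The E12.5 and E14 libraries overlapped, and all libraries from E15.5 on lay above them. From 3.04 ± 0.25 CPM (SD, n = 2) at E12.5 the mean rose to 9.80 ± 0.17 CPM at P0, a log2 fold change of 1.68 (limma-voom adjusted p = 1.73e-05, SE 0.14).

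The largest step of Ezh1 was the one into E15.5. From E14 to E15.5 its log2 fold change was 0.90 (limma-voom adjusted p = 0.00127, SE 0.13), a call that was kept in all 19 alternative settings. From E17 to P0 it was 0.49 (limma-voom adjusted p = 0.0228, SE 0.12), and this call was lost in 5 of 19, among them DESeq2 (adjusted p = 0.0964) and the fits without either E17 library (0.105 and 0.121).

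The balance between the PRC2 methyltransferases was read as the ratio of Ezh1 to Ezh2 counts in each library, which needs no scaling between libraries. It was 0.0125 and 0.0158 at E12.5, then 0.0199 and 0.0172 at E14, then 0.0427 and 0.0496 at E15.5, then 0.102 and 0.0823 at E17, and last 0.390 and 0.224 at P0. No library of a later stage fell below a library of an earlier one. The log2 ratio rose by 4.39 between E12.5 and P0. The 5 stages differed in an exact permutation test over the 10 libraries (p = 0.00106, adjusted p = 0.00317 over 3 pairs). The test used the spread between stages without regard to direction, and that p is the smallest this design can give. The ratios are of counts and not per length, so they do not say which of the paralogues was the more abundant, and the pair was chosen with the opposite courses of its genes known. Reads that match several places were kept by the authors' aligner, so that footprints from stretches shared by paralogues could have been assigned to either.

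Neither of the PRC1 pairs passed the test. The ratio of Ring1 to Rnf2 lay between 0.0209 and 0.0523 in the 10 libraries (exact permutation p = 0.239, adjusted p = 0.357). Some of its stages overlapped, but both E14 libraries (0.0479 and 0.0291) lay above those of E12.5, E15.5 and E17. The ratio of Bmi1 to Pcgf2, another PCGF protein, lay between 0.263 and 0.444 (exact permutation p = 0.357, adjusted p = 0.357). Both E12.5 libraries (0.356 and 0.322) lay below those of E14, E15.5 and E17, and the P0 libraries lay on either side of them. P0 replicate 1 held the lowest value of that last ratio, and without P0 replicate 2 the exact permutation test of the pair passed the threshold (adjusted p = 0.0159).

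**Figure D3:**
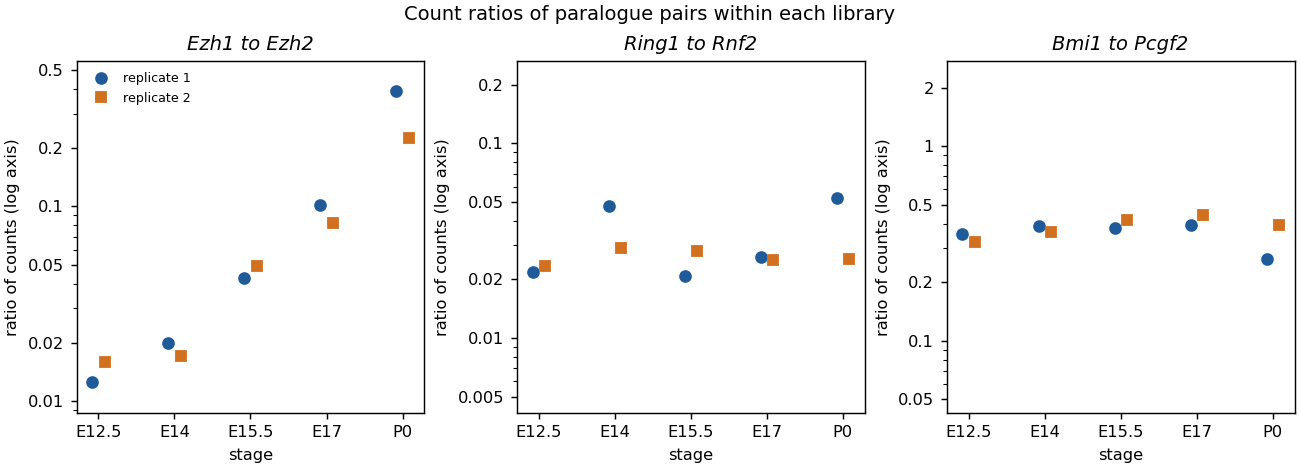
Ratio of footprint counts within each library (vertical axes, log scale, each spanning the same fold range) for 3 pairs of Polycomb paralogues by stage, with circles for replicate 1 and squares for replicate 2. Ezh1 to Ezh2 climbs from 0.0125 and 0.0158 to 0.390 and 0.224, while in the other pairs some stages overlap and others do not.

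Eed (ENSMUSG00000030619), the core subunit that binds the methyl mark and stimulates the enzyme, had 20.1 and 14.7 CPM at E12.5, 12.9 and 12.8 CPM at E14, 8.34 and 8.86 CPM at E15.5, 5.46 and 6.61 CPM at E17, and 3.81 and 6.15 CPM at P0. Stages did not overlap up to E17, and E17 and P0 did. Its log2 fold change from E12.5 to P0 was -1.68 (limma-voom adjusted p = 0.000295, SE 0.23). No single step was called, with -0.58 (SE 0.20) from E14 to E15.5 as the largest (limma-voom adjusted p = 0.0556), a step that was called in 8 of 19 alternative settings.

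Suz12 (ENSMUSG00000017548), the scaffold on which the PRC2 core and its accessory proteins assemble, had 49.8 and 39.1 CPM at E12.5, 26.8 and 33.1 CPM at E14, 24.9 and 25.5 CPM at E15.5, 18.7 and 20.0 CPM at E17, and 8.15 and 15.3 CPM at P0. Each stage lay below the one before with no overlap. The log2 fold change from E12.5 to P0 was -1.85 (limma-voom adjusted p = 0.000311, SE 0.25), and that from E12.5 to E15.5 was -0.80 (limma-voom adjusted p = 0.0211, SE 0.23). No single step of Suz12 was called.

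Counts of Eed and Suz12 relative to those of Ezh2 were higher at P0 than before. The ratio of Eed to Ezh2 counts stayed within 0.0611 to 0.0870 in the 8 embryonic libraries and was 0.153 and 0.138 at P0. The ratio of Suz12 to Ezh2 counts was 0.154 to 0.215 from E12.5 to E15.5, 0.264 and 0.244 at E17, and 0.328 and 0.345 at P0. These ratios were computed after the values of the genes had been seen and are given without a test.

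The promoters of the members were searched for words bound by E2F, the family of transcription factors that drives genes of the cell cycle, since several members fell over the stages at which cell cycle genes did. The words were TTTCCCGC, TTTCGCGC, TTTGCCGC and TTTGGCGC on both strands, within 250 bases before and 50 bases after each gene start in RefSeq (GRCm38.p6). Promoters of 8 members were at hand, Cbx2 being the member without one, and 2 members held a word, Ezh2 and Suz12. A word was held by 2.6% of all 27025 genes with a promoter there, and of the 10376 among them that passed the count filter, 4.56%. The 28 bases around each match are shown 5′ to 3′ along the gene, with the word in capitals:
Ezh2, chr6:47595010-47595037, minus strand: ggttgctgcgTTTGGCGCtcggtccggt
Suz12, chr11:79992877-79992904, plus strand: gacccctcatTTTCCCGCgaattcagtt
Counted from 0 at the first base of the gene, the Ezh2 word begins at position 3 and the Suz12 word at position -219. A match of letters is not evidence that a factor binds there.

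Jarid2 (ENSMUSG00000038518), an accessory protein that helps to bring PRC2 to its sites, changed late and little. It had 22.9 and 21.6 CPM at E12.5, 23.2 and 23.8 CPM at E14, 23.6 and 20.0 CPM at E15.5, 19.3 and 15.6 CPM at E17, and 11.4 and 15.7 CPM at P0. The E15.5 libraries spanned those of E12.5, and the P0 libraries overlapped those of E17. From E12.5 to P0 the log2 fold change was -0.68 (limma-voom adjusted p = 0.00873, SE 0.17). This call was lost when libraries were scaled by their totals alone (-0.15, limma-voom adjusted p = 0.450), in a fit of those 2 stages only (0.0527) and when quality weights were given to the libraries (0.0601).

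Rnf2 (ENSMUSG00000026484), also known as Ring1b, carries most of the ubiquitin ligase activity of PRC1 in embryonic cells. It had 178 and 174 CPM at E12.5, 143 and 162 CPM at E14, 175 and 181 CPM at E15.5, 165 and 164 CPM at E17, and 121 and 181 CPM at P0. The P0 libraries lay on either side of those of E12.5 and E17. The moderated F test over the 5 stages did not pass (limma-voom adjusted p = 0.511), and the log2 fold change from E12.5 to P0 was -0.23 (SE 0.17). Without P0 replicate 1 it was 0.04, and without P0 replicate 2 it was -0.50 and called (limma-voom adjusted p = 0.00248), so that its value at birth rested on which library was read.

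Ring1 (ENSMUSG00000024325), the paralogue of Rnf2, had 3.85 and 4.07 CPM at E12.5, 6.84 and 4.69 CPM at E14, 3.64 and 5.02 CPM at E15.5, 4.29 and 4.09 CPM at E17, and 6.31 and 4.60 CPM at P0. The replicates of E14, E15.5 and P0 differed by more than 1 CPM, and the moderated F test did not pass (limma-voom adjusted p = 0.333). Its log2 fold change from E12.5 to P0 was 0.35 (SE 0.25). Scaled by library totals alone it was 0.87 and called (limma-voom adjusted p = 0.0134), while that scaling moved the median of all genes by 0.51.

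Bmi1 (ENSMUSG00000026739), the PCGF protein of PRC1 known for sustaining the self-renewal of neural stem cells, was highest in the middle of the course. It had 24.9 and 22.9 CPM at E12.5, 23.3 and 27.2 CPM at E14, 33.9 and 37.1 CPM at E15.5, 35.0 and 35.5 CPM at E17, and 13.9 and 25.8 CPM at P0. The E15.5 and E17 libraries lay above all others. Bmi1 passed the moderated F test over the 5 stages (limma-voom adjusted p = 0.0406), and its log2 fold change from E17 to P0 was -0.81 (limma-voom adjusted p = 0.0429, SE 0.23). That call was lost in 13 of 19 alternative settings, where adjusted p reached 0.214, and edgeR gave an adjusted p of 0.0551. Without P0 replicate 1 the log2 fold change was -0.45 and without P0 replicate 2 it was -1.31. The step up from E14 to E15.5, 0.49 (SE 0.22), did not pass (limma-voom adjusted p = 0.126) and was called in 5 of 19 settings.

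Cbx2 (ENSMUSG00000025577), the CBX protein that reads the methyl mark and compacts chromatin, had the largest fall of the members. It had 8.74 and 9.35 CPM at E12.5, 8.17 and 7.03 CPM at E14, 3.04 and 2.32 CPM at E15.5, 1.59 and 1.43 CPM at E17, and 0.544 and 0.835 CPM at P0. Each stage lay below the one before with no overlap, and the P0 libraries held 5 and 35 counts. From E14 to E15.5 the log2 fold change was -1.48 (limma-voom adjusted p = 0.000383, SE 0.16), called in all 19 alternative settings. From E15.5 to E17 it was -0.83 (limma-voom adjusted p = 0.0419, SE 0.20), a call lost in 11 of 19, among them DESeq2 (adjusted p = 0.111) and the fits without any 1 library of E12.5, E14, E15.5 or E17 (0.0604 to 0.291). From E17 to P0 it was -0.93 (SE 0.29), which did not pass (limma-voom adjusted p = 0.0528). From E12.5 to P0 it was -3.50 (limma-voom adjusted p = 1.05e-05, SE 0.26).

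The called steps differed between members. Ezh1 and Cbx2 had their largest called step from E14 to E15.5, and the only called step of Ezh2 was that from E17 to P0. Over the 10 libraries log2 CPM of Ezh2 had a Pearson r of 0.97 with Suz12, 0.94 with Eed, 0.93 with Jarid2 and 0.95 with Cbx2, and of -0.91 with Ezh1. Rnf2 and Bmi1 had an r of 0.73 with each other, and Ring1 and Rnf2 of -0.76. These values describe 10 libraries of 5 stages, which share their depth and their stage order, and carry no test.

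Marker lists of dividing cells, progenitors, neurons, glia and blood were set beside the members, since in a bulk tissue fewer cells of a type and less RNA per cell cannot be told apart. The 19 genes of dividing cells summed to 2049 to 2117 CPM at E12.5, 1490 to 1516 CPM at E14, 751 to 764 CPM at E15.5, 446 to 477 CPM at E17 and 210 to 231 CPM at P0. From E12.5 to P0 all 19 fell, with a median log2 fold change of -3.78 and a range of -4.44 to -2.23. Ezh2, at -2.65, and Cbx2, at -3.50, lay within this range, and Eed, Suz12 and Jarid2 fell by less than any gene of the list. The 8 neuron genes summed to 1878 to 1899 CPM at E12.5 and to 9359 to 10420 CPM at P0, and all 8 rose. Of the 8 progenitor genes 6 fell and 2 rose, and their sum was 2123 to 2174 CPM at E12.5 and 1450 to 1987 CPM at P0.

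Blood and glia moved over the same stages. The 8 genes of red blood cells summed to 8668 to 9293 CPM at E12.5 and to 1112 to 1480 CPM at P0, and all 8 fell, with a median log2 fold change of -3.35. The 10 genes of glia and microglia summed to 22.8 to 23.0 CPM at E12.5 and to 96.9 to 130 CPM at P0, where 5 rose and 2 fell, and Gfap was at 0 in 1 library.

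From E14 to E15.5 all 19 genes of the list fell, by -1.38 to -0.70 on the log2 scale. The log2 fold changes of Ezh2, Eed, Suz12 and Jarid2 at that step were -0.41, -0.58, -0.25 and -0.11, smaller than any of the list, and that of Cbx2 was -1.48. The differences between members and list were not tested. Against the summed list of dividing cells, log2 CPM had a Pearson r over the 10 libraries of 0.99 for Cbx2, 0.96 for Ezh2, 0.95 for Eed, 0.93 for Suz12 and 0.86 for Jarid2. For Ring1, Rnf2 and Bmi1 it was -0.21, 0.32 and 0.13. Against the summed progenitor list, r was 0.87 for Bmi1, 0.68 for Rnf2 and -0.48 for Ring1, and 0.59 for Ezh2 and 0.41 for Cbx2. Fabp7 was the largest part of that sum, with means of 969 CPM at E12.5, 2054 CPM at E17 and 1486 CPM at P0. It rose from E12.5 to P0 where 6 of the 8 genes fell, so these r values do not stand for most of the list. Ezh1 had an r of -0.97 with dividing cells and of 0.98 with the neuron list. The part of the changing cell mixture in the members' levels was not tested.

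**Figure D4:**
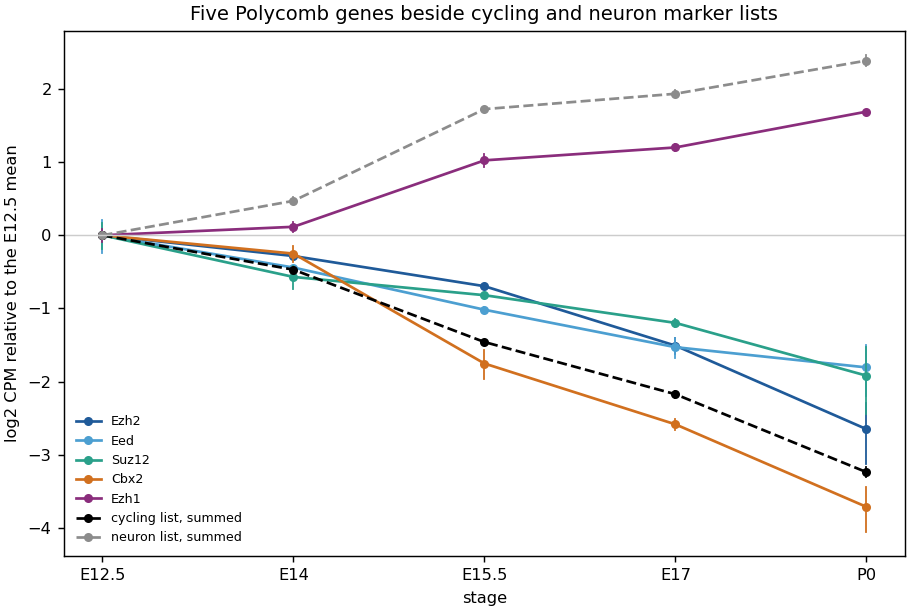
Levels of 5 Polycomb genes beside the summed lists of 19 genes of dividing cells and 8 neuron genes, as log2 CPM relative to the mean of E12.5 (vertical axis) by stage (horizontal axis), with points for the mean of the 2 libraries and bars from one library to the other. Cbx2 lies below the list of dividing cells from E15.5 on, Ezh2 lies above it from E14 on, and Ezh1 rises with the neuron list.

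Among the 4559 genes whose counts averaged at least 500 per library, those whose log2 CPM followed Ezh2 most closely over the 10 libraries were Hnrnpc (r = 0.996), Rpl7l1 (r = 0.994) and Srsf10 (r = 0.994). Hnrnpc and Srsf10 code for proteins that bind and splice RNA. Those most like Ezh1 were Klf7 (r = 0.993), a zinc finger transcription factor of neurons, Ndrg4 (r = 0.992) and Rab3b (r = 0.991), a GTPase of synaptic vesicles.

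Other subunits of Polycomb complexes and the 2 demethylases of lysine 27 were taken as lists of 37 genes together, all of which passed the filter. From E12.5 to P0, 9 rose, 11 fell and 17 were not called, with a median log2 fold change of 0.10, against the 30.1% and 32% of all genes called higher and lower. Of the 7 other PRC2 genes, 5 fell and 1 rose (median -0.85). Of the 20 other PRC1 genes, 5 rose and 3 fell (median 0.16). Of the 8 genes of the deubiquitinase complex that removes the PRC1 mark, 3 rose and 2 fell (median 0.39). Of the 2 demethylases of lysine 27, Kdm6a fell and Kdm6b was not called.

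Among PRC2 accessory genes averaging at least 100 counts, the largest falls from E12.5 to P0 were those of Mtf2, from 50.0 to 16.9 CPM (log2 fold change -1.54, limma-voom adjusted p = 0.000816), and of Aebp2, from 58.7 to 26.2 CPM (-1.14, limma-voom adjusted p = 0.000407). Mtf2 guides PRC2 to unmethylated CpG islands, and Aebp2 belongs to the form of the complex that also holds Jarid2. Rbbp4, the histone-binding subunit of the core, fell from 180 to 141 CPM between E15.5 and E17 (-0.35, limma-voom adjusted p = 0.0365).

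In PRC1, Pcgf5, a PCGF protein of the variant complexes that lack CBX proteins, fell from 15.2 to 2.08 CPM between E12.5 and P0 (-2.55, limma-voom adjusted p = 0.000514). Its P0 libraries held 0.979 and 3.17 CPM, with 9 counts in replicate 1, so the size of this fall depends on which library is read. It had already dropped from 11.4 to 5.79 CPM between E14 and E15.5 (-0.98, limma-voom adjusted p = 0.0298). Between E12.5 and P0 Phc3, a Polyhomeotic subunit, rose from 11.6 to 23.7 CPM (1.02, limma-voom adjusted p = 0.000122), and Kdm2b, which brings a variant PRC1 to CpG islands, from 38.2 to 68.1 CPM (0.81, limma-voom adjusted p = 0.000354). Bcorl1, a corepressor of the same variant complex, rose from 10.9 to 17.1 CPM between E14 and E15.5 (0.65, limma-voom adjusted p = 0.0143). Between E17 and P0 Phc2 fell from 163 to 103 CPM (-0.69, limma-voom adjusted p = 0.0397).

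Other CBX genes were set beside Cbx2. From E12.5 to P0 Cbx6, Cbx7 and Cbx8 had log2 fold changes of 0.10, 1.04 and 0.18 and were not called, and Cbx7 was thinly counted, with a mean of 16.1 counts. The values of these paralogues were picked out after they had been seen, and the differences from Cbx2 were not tested.

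**Figure D5:**
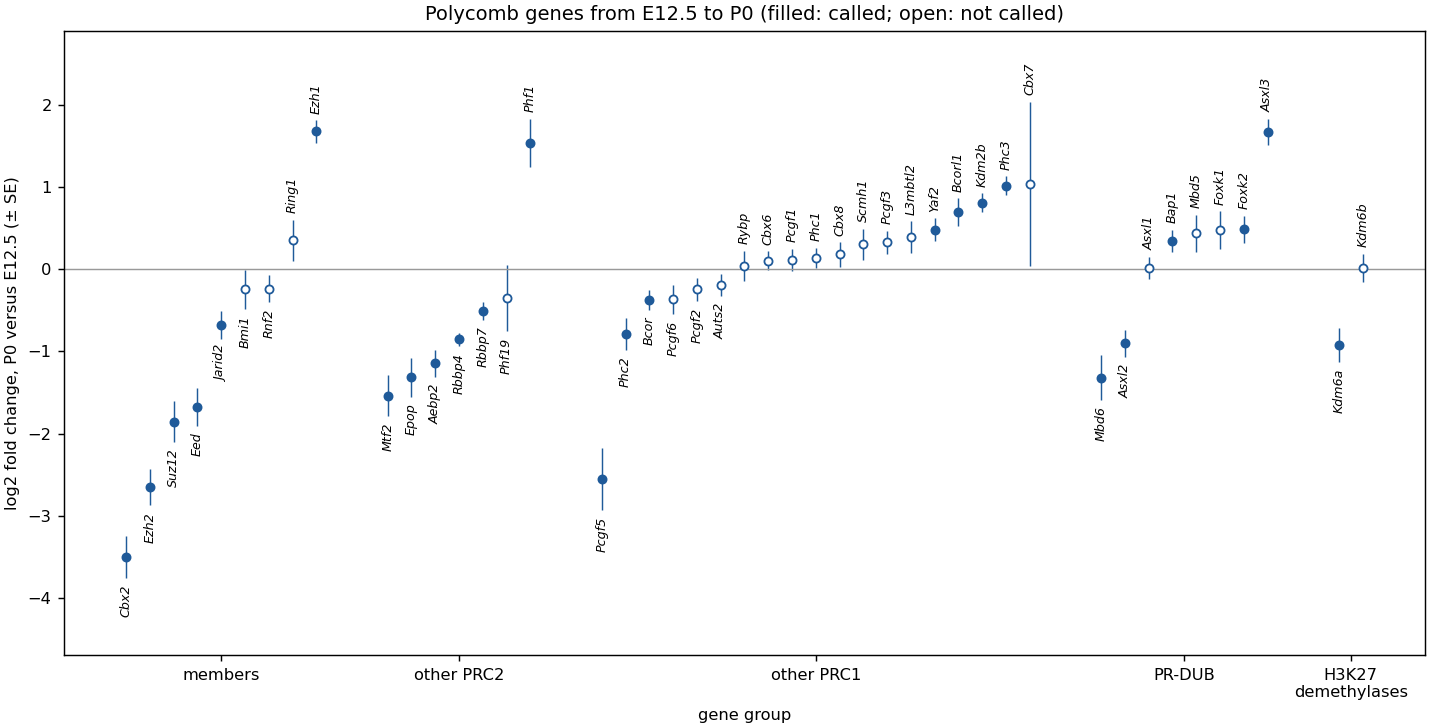
Log2 fold change from E12.5 to P0 with its standard error (vertical axis) of the 9 members and the other Polycomb genes, 1 PRC1 gene left out, ordered within each group (horizontal axis), with filled points for called genes. The members span -3.50 to 1.68, 5 of the 7 other PRC2 genes are filled and below 0, and the PRC1 genes lie on both sides of 0.

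Among genes known as Polycomb targets, Neurog1, a transcription factor that starts neurogenesis and is held silent by Polycomb in late cortical progenitors, had 223, 418, 312 and 380 counts in the 4 libraries of E12.5 and E14, 116 and 64 at E15.5, 30 and 16 at E17, and 2 and 8 at P0. Between E14 and E15.5 it fell by 2.04 in log2 units (limma-voom adjusted p = 0.000201, SE 0.19) and by 1.99 from E15.5 to E17 (limma-voom adjusted p = 0.0123, SE 0.31). Fezf2, which specifies deep-layer neurons, averaged 20.9 CPM at E12.5, 24.6 CPM at E14, 27.8 CPM at E15.5, 18.6 CPM at E17 and 16.7 CPM at P0. Of its steps only that from E15.5 to E17 was called, with a log2 fold change of -0.58 (limma-voom adjusted p = 0.0482, SE 0.15). From E12.5 to P0 its log2 fold change was -0.40 and not called (limma-voom adjusted p = 0.0518). Cdkn2a and Cdkn2b, cell cycle inhibitors at a locus that Polycomb keeps silent, held at most 5 and 25 counts in any library and did not pass the filter. Of the 39 Hox genes listed, 2 passed the filter, and all 39 together summed to 1.73 to 5.11 CPM in a library. Low footprint counts of these genes do not show that the histone marks were present, which was not measured here.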

How the data were processed

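Ribosome footprints were measured in 10 libraries of mouse neocortex, 2 pools per stage at 5 stages. The authors deposited 1 table of whole-number footprint counts per gene. Per the study's methods, duplicate reads were collapsed, tRNA, rRNA and snoRNA reads were removed with Bowtie 2, and STAR aligned what remained (2.7.0 in the submitters' processing notes), with multi-mapping reads kept. The methods align to a GENCODE mouse release of the GRCm38 assembly. The table itself names no build, and whether strand was used in counting is not given in the sources used here. RefSeq places lncRNA genes over Ezh2 and Cbx2.

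The members and gene lists were chosen with earlier results of these data known. Genes with at least 32 counts summed over a stage were kept. limma-voom (limma 3.58.1, edgeR 4.0.16, R 4.3.3) fitted 1 coefficient per stage with TMM scaling to all 10 libraries, as the study's methods use limma, and p-values were adjusted by Benjamini-Hochberg over 13484 genes. Standard errors and p-values measure the spread between pools, taken over all 10 libraries as 1 residual variance per gene. They are thus not particular to the stages compared. The spread between replicates was largest at P0 (SD 0.54, against 0.13 to 0.22 at the embryonic stages). It enters the tests of embryonic steps and is understated in those of P0. With quality weights, 4.86% of all genes were called from E12.5 to E14 (0.638% without) and 5.18% from E17 to P0 (20.5% without). The part of the P0 spread in the uncalled embryonic steps was not tested. Paralogue ratios had 0.5 added to each count and were tested over all 113400 arrangements of libraries to stages. All members are named. Of the other Polycomb genes averaging at least 100 counts, the 3 largest called rises and falls from E12.5 to P0 and the largest of each step are named, except 1 gene that is not reported here, and likeness used Pearson's r on log2 CPM with a prior count of 2. The fit was tested on simulated data. Alternatives were edgeR, DESeq2 (1.42.0), 2 other scalings, 2 other filters, quality weights, a replicate block, fits of 2 stages and leaving out each library.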

Additional observations from a re-analysis of the deposited data

How the results depend on the processing

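All 6 calls from E12.5 to P0 except that of Jarid2 were kept in all 19 alternatives. Members called numbered 2 from E14 to E15.5, and 4 with total counts only, 5 with quality weights and 5 in a fit of the 2 stages. Of all genes, 36.1% were called there, and 44.9%, 48.2% and 47.4% in those settings. From E15.5 to E17 there was 1, and 2 with DESeq2 size factors or a mean of at least 100 counts. There were 5 with quality weights and 4 in a fit of the 2 stages. Without a filter there were 0, where limma-voom passed 3 at an unadjusted p under 0.05. The shares of all genes called were 9.04%, and in the same order 9.06%, 10.5%, 27.6%, 23.8% and 3.99%. From E17 to P0 there were 3, and 1 with quality weights and 0 in a fit of the 2 stages. In that last fit limma-voom passed 4 at an unadjusted p under 0.05. Of all genes, 20.5%, 5.18% and 0% were called. Over all stages edgeR and DESeq2 each called 1 from E15.5 to E17, beside 7.28% and 7.59% of all genes. From E17 to P0 they called 3 and 2, beside 18.4% and 16.5% (edgeR Ezh1, Ezh2 and Cbx2, DESeq2 Ezh2 and Bmi1).

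Leaving out 1 library gave 0 to 1 members called from E12.5 to E14, 2 to 5 from E14 to E15.5, 0 to 2 from E15.5 to E17, 0 to 5 from E17 to P0, and 3 to 6 from E12.5 to E15.5. From E12.5 to E14 Suz12 was called without either P0 library. From E14 to E15.5 Ezh2, Eed and Bmi1 were added without either P0 library. From E17 to P0 limma-voom called 0 without E17 replicate 1 or 2, with 4 and 5 at an unadjusted p under 0.05, and 5 without P0 replicate 2. The fall of Ezh2 and that of Suz12 from E12.5 to E15.5 were called in 14 and 15 of 19 alternatives. Leaving out a library also moved the share of all genes called in these comparisons, so such shifts are not particular to the members.

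Uncalled values turned sign in a few settings. With total counts only, which moved the median of all genes by 0.29 from E14 to E15.5 and by 0.51 from E12.5 to P0, the log2 fold change was 0.049 (Suz12) and 0.18 (Jarid2) from E14 to E15.5, and 0.30 (Rnf2) and 0.29 (Bmi1) from E12.5 to P0. Leaving out 1 library gave -0.23 to 0.0084 for Jarid2 from E14 to E15.5, and -0.50 to 0.042 for Rnf2 and -0.74 to 0.12 for Bmi1 from E12.5 to P0. The adjusted p of Bmi1 to Pcgf2 ran from 0.0159 to 0.579. The causes were not tested.

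The replicate numbers were not taken as pairs, since the labels name no shared source and the correlations of replicate differences between stages were not all above 0.1. They were -0.63 to -0.11 for E12.5 with the other stages and -0.04 to 0.43 among the rest. With a replicate block 0 members were called from E15.5 to E17, beside 6.07% of all genes. At an unadjusted p under 0.05, 2 members passed there (Cbx2, limma-voom adjusted p = 0.0552). The block changed no other call of a member. The low depth of P0 replicate 1 limits what can be read at birth.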
